A study of Mus musculus with 9 samples.

Results

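The striatum of embryos labelled Islet1Cre;Ebf1fl/- was compared with that of embryos labelled Control, gene by gene across the transcriptome. The comparison used 6 of the 9 libraries of the series, 3 per genotype, and every Ensembl gene in the count files. All embryos were mice at E17.5. Each library was made from polyadenylated RNA of the striatum, with a kit that keeps the strand, and carries the code of 1 embryo in its label. In the mutants, Cre made from the Islet1 locus recombined a floxed Ebf1 allele that faced a null allele. According to the sample labels, males carrying the null allele and Islet1Cre were mated with females with 2 floxed alleles, so that each embryo of this cross carried a floxed allele, and by the methods of the study the controls were heterozygous. The null allele was therefore present in every cell of the mutants, while recombination by Islet1Cre is limited to direct pathway neurons and cholinergic interneurons, so that other striatal cells kept their floxed copy. The strain was labelled C57BL/6, whereas the methods kept the Islet1Cre line on a B6D2F1/J background. The 3 remaining libraries, labelled Dlx5/6::Cre;Ebf1fl/-, carry the same floxed and null alleles with a Cre that acts in all projection neurons and interneurons of the striatum. They entered the fit to estimate the spread between embryos and are shown beside some values, but were measured against the same controls and so give no independent comparison.

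Spiny projection neurons, the inhibitory neurons that make up most of the striatum, fall into a direct pathway population (dSPN), which expresses Drd1 and projects to the substantia nigra, and an indirect pathway population (iSPN), which expresses Drd2 and projects to the external pallidum. Ebf1 encodes a helix-loop-helix transcription factor that is expressed in dSPN and little in iSPN. While these neurons settle, they form intermingled populations and 2 compartments, striosomes and matrix, which depends on transcription factors, adhesion molecules and guidance receptors.

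Counts on genes totalled 16.5 to 41.5 M per library, where M is 1000000 counts, and the mutant libraries had 22.7, 41.5 and 16.5 M. Values below are normalized counts, which are counts divided by DESeq2 size factors, and are listed in the order of replicates 1, 2 and 3. Ebf1 was at 7945, 14208 and 9697 in controls and 15343, 13866 and 13210.0 in mutants, so the 3 mutants did not lie below the controls. Counts summed over a gene cannot show whether an exon was recombined, so genotypes follow the labels. By immunostaining, the study reports that Ebf1 protein was absent from the striatum of these mutants at E17.5. Isl1, whose locus carries the Cre, was at 5065, 6247 and 4713 in controls and 5415, 5668 and 4927 in mutants, with overlapping groups. Both replicate 3 libraries held counts of Xist together with Y-linked genes. In Islet1Cre;Ebf1fl/- 3 Xist was at 7269.9 and the Y-linked Eif2s3y at 956, and in Control 3 they were at 12074 and 110.0. Control 2 had Y-linked counts with Xist at 3.27, and Control 1 and the mutants 1 and 2 had Xist with at most 1.42 on any of the 4 Y-linked genes examined. How these counts arose was not tested, and calls are given with and without both libraries, with adjusted p-values of the calls lost.

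Of 16368 genes with enough counts to test, 159 (0.971%) differed between the groups at a Benjamini-Hochberg adjusted p below 0.05 by edgeR's quasi-likelihood test, which gives all adjusted p-values here and is what "called" refers to. The mutants were lower for 82 genes (0.501%) and higher for 77 (0.47%). The median log2 fold change, mutant over control, was -1.04 for the lower and 1.01 for the higher genes, against -0.0016 over all genes tested. A change of at least 2-fold was fitted for 43 of the lower and 39 of the higher genes, and one of at least 4-fold for 10 and 13. In 158 of the 159 genes all 3 mutants lay outside the range of the controls, which was also true of 7.28% of all genes tested on the lower side and 7.83% on the higher side. Genes that were lower had a median mean normalized count of 1180.1, above the 694 of those that were higher and the 624 of all genes tested. Of the called genes 151 were protein-coding, as were 87.1% of those tested. Of the 159, 145 are not drawn in the figures of the study. Since this is whole striatum, fewer cells of a type and less RNA per cell cannot be told apart.

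**Figure D1:**
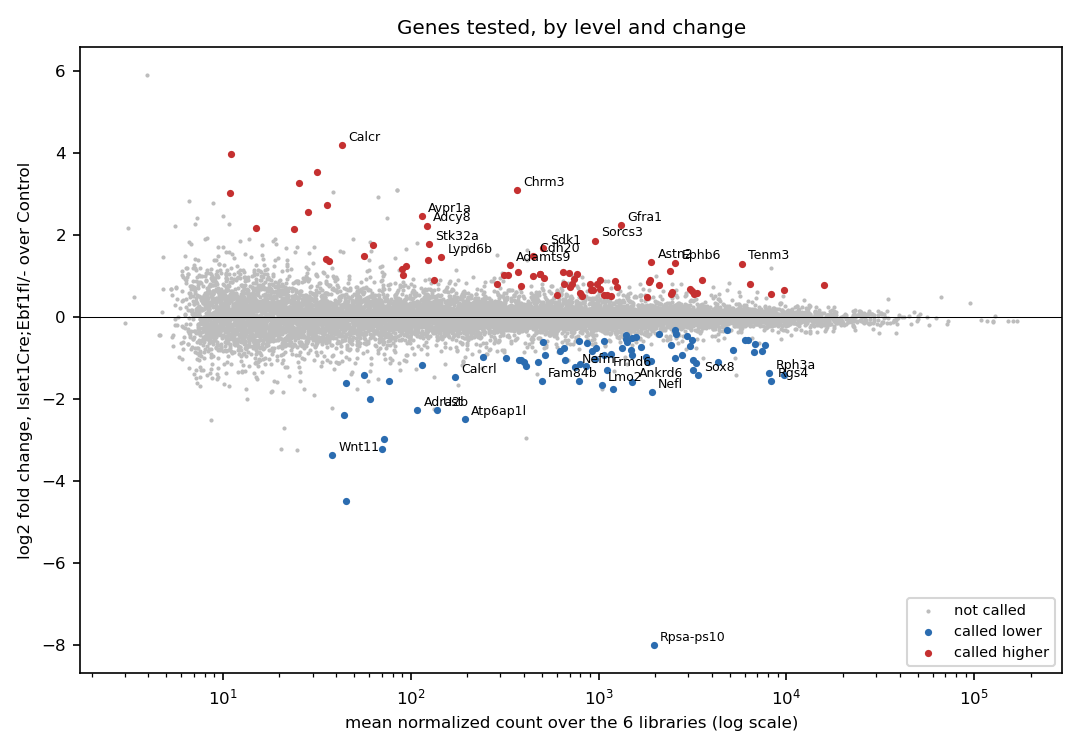
Each point is 1 of the 16368 genes tested, with its mean normalized count over the 6 libraries on a log x axis and its log2 fold change, Islet1Cre;Ebf1fl/- over Control, on the y axis. The 82 genes called lower (blue) and 77 called higher (red) cover most of the range of levels, and Chrm3, at a log2 fold change of 3.08, stands above the other genes of its level, and Rpsa-ps10, at -7.99, is the lowest point.

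The called genes differed in how firmly each mutant departed from the controls. Among the lower genes, the median log2 distance from the mean of the controls was -1.08, -1.10 and -0.80 in mutants 1, 2 and 3, and among the higher genes 1.00, 1.13 and 0.90. Mutant 3, which is the shallowest library and holds Y-linked counts, was the mutant nearest to the controls in 121 of 159 genes, 72 of the lower and 49 of the higher ones. Without this library 101 genes were called, of which 87 were among the 159. Without Control 3 the number was 55, with 53 among the 159, and without both it was 52 (34 lower and 18 higher), with 44 among the 159. All 159 genes kept their direction without both libraries, and 138 of them had a larger fold change. The groups do not overlap in 158 of them, so leaving out libraries could hardly turn a direction, and this is no separate support. The numbers also depended on the other libraries, with 31 genes called without Control 1, 62 without Control 2, 19 without mutant 1 and 15 without mutant 2. Embryo codes in the labels begin with IE or D, and Control 3 is the only D embryo of the 6. Among the 5 IE embryos 169 genes were called, 126 of them among the 159, and all 159 had the same direction, with the same limit. With this code as a covariate over the 9 libraries 61 genes were called, and 58 of the 159 kept their call.

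**Figure D2:**
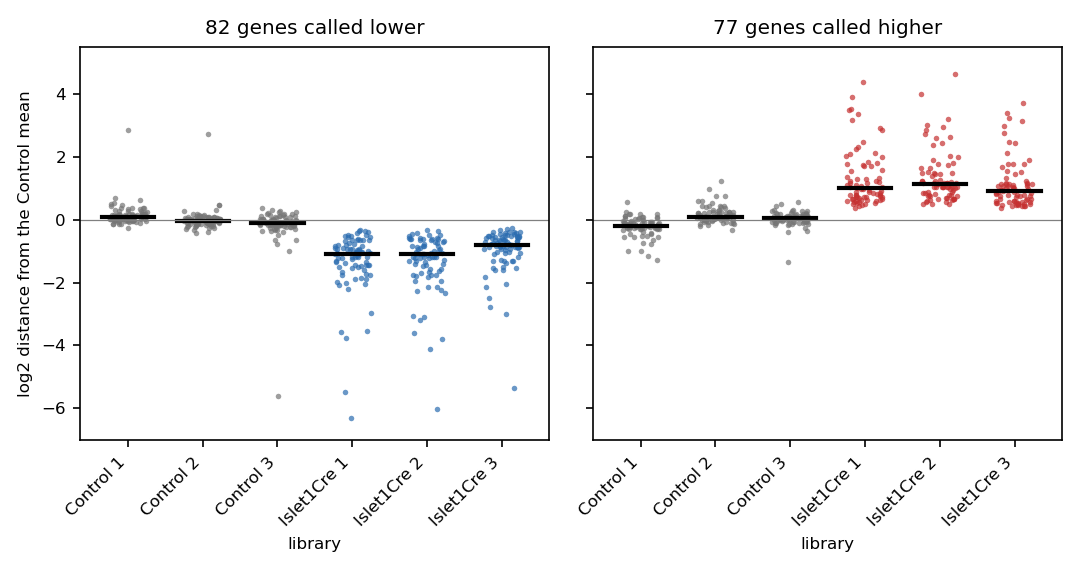
Each point is 1 called gene in 1 library, plotted as the log2 distance of its normalized count from the mean of the controls, with genes called lower on the left and called higher on the right, and black bars for the medians. The mutants lie on 1 side of the controls, with medians of -0.80 for the lower and 0.90 for the higher genes in mutant 3, closer to 0 than in mutants 1 and 2.

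In all, 13 genes were called in this fit and in each of 17 alternatives, which included the omission of each library in turn. The lower ones were Lmo2, Sox8, Tenm2, Prkcd and Odc1, and the higher ones Ndrg2, Pam, Zfp385b, Tenm3, Ephb6, Sdk1, Gfra1 and Chrm3. Chrm3 (ENSMUSG00000046159, chr13:9875486-10360847 of GRCm38), the M3 muscarinic acetylcholine receptor, had the smallest adjusted p-value of all genes tested. It was at 72.4, 89.0 and 69.3 in controls and at 794, 566 and 607 in mutants, a log2 fold change of 3.08 (SE 0.20, adjusted p = 0.000197). Ephb6 (chr6:41605482-41620509), an Eph receptor without kinase activity, was at 1327, 1564 and 1502 in controls and 3608, 4023 and 3315 in mutants, a log2 fold change of 1.32 (SE 0.11, adjusted p = 0.00143). For both receptors the mutants formed a group well above the controls, and the spread within each group was small beside the gap. Odc1, ornithine decarboxylase of polyamine synthesis, had a smaller change with a tight spread, at 9838, 9862 and 8668 in controls and 5673, 5879 and 6078 in mutants (log2 fold change -0.69, SE 0.07). Of the 75-base windows of Odc1 transcripts, 16.6% also occur in transcripts of other genes, and reads from these were removed by the authors. Pam, an enzyme that amidates neuropeptides, and Ndrg2, of the N-Myc downstream-regulated family, were higher with log2 fold changes of 0.68 (SE 0.08) and 0.59 (SE 0.07). Prkcd, protein kinase C delta, was lower, at 1691, 1472 and 1405 in controls and 745, 858 and 848 in mutants (log2 fold change -0.90, adjusted p = 0.00501). When both replicate 3 libraries were omitted, a case outside the 17 alternatives, Pam (adjusted p = 0.0743) and Ndrg2 (adjusted p = 0.0881) lost their calls and the other genes kept them.

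**Figure D3:**
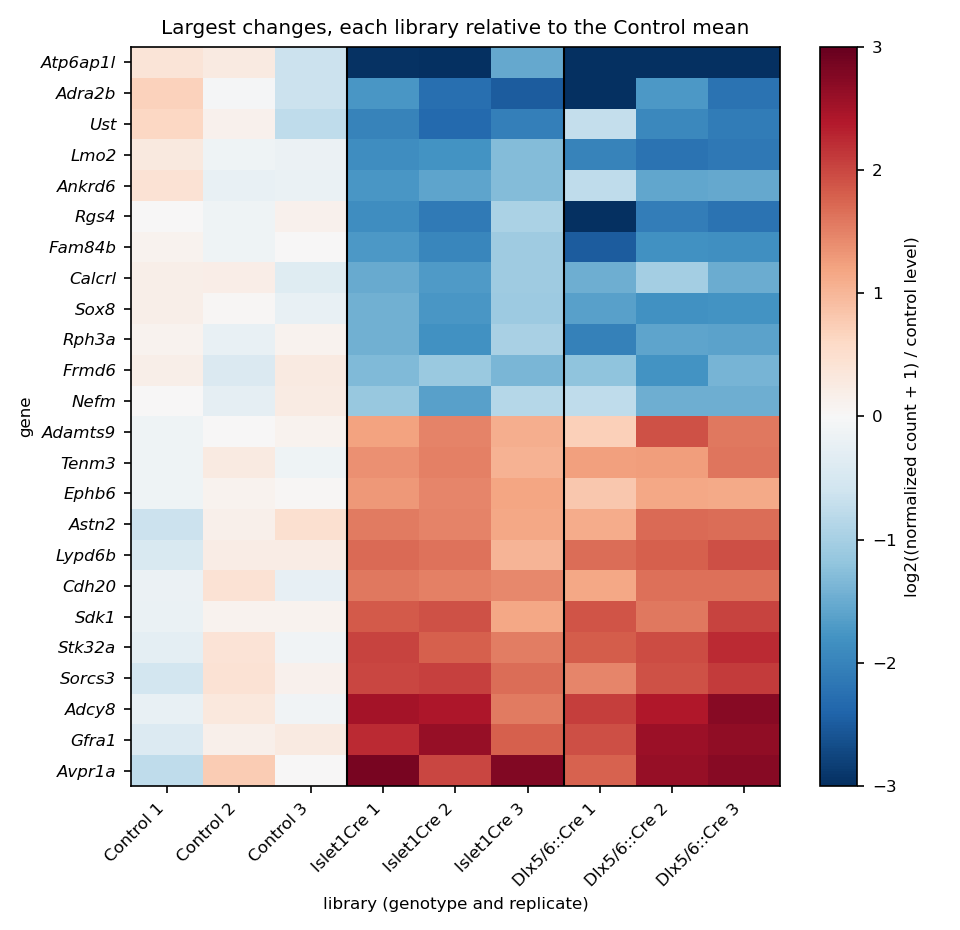
Rows are the 12 lower and 12 higher protein-coding genes with the largest log2 fold change among called genes whose mean normalized count was 100 or more, with no overlap between groups, leaving out genes drawn in the study's figures, columns are libraries, and colour is log2 of (normalized count + 1) minus its mean in the controls, held within 3 on either side. The mutants are blue for the lower and red for the higher genes in every library, with mutant 3 paler for Lmo2, Rgs4 and Gfra1, and the Dlx5/6::Cre libraries, which share the controls, are drawn at the right.

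The 12 lower and 12 higher genes picked by size of change were also required to have groups without overlap. Of these 24, 17 were called without mutant 3, 16 without Control 3, 15 without both, all 24 among IE embryos and 17 with the embryo code as a covariate. Without both, the calls of Adra2b, Ust, Ankrd6, Frmd6, Nefm, Adamts9, Cdh20, Stk32a and Avpr1a were lost, at adjusted p-values from 0.0577 (Stk32a) to 0.229 (Adamts9). The covariate ended those of Rgs4, Fam84b, Frmd6, Nefm, Adamts9, Lypd6b and Avpr1a. Besides the genes described with their families below, the lower ones included Atp6ap1l, which resembles a subunit of the vacuolar proton pump, at 408, 376 and 198 in controls and 39.4, 36.2 and 107 in mutants (log2 fold change -2.48, SE 0.44). Ust, a sulfotransferase that modifies dermatan and chondroitin sulfate, was at 327, 231 and 123 in controls and 51.6, 41.1 and 50.1 in mutants. Fam84b was at 798, 676 and 748 in controls and 224, 189 and 353 in mutants (log2 fold change -1.55, SE 0.24). Ankrd6, a cytoplasmic protein of the planar cell polarity arm of Wnt signalling, was at 2974, 1892 and 1910.4 in controls and 652, 738 and 895 in mutants. The gap between groups was a condition for picking these genes, and the controls of Atp6ap1l and Ust spread widely. Frmd6, a FERM-domain protein of Hippo signalling, was at 1719, 1136 and 1848 in controls and 608, 712 and 596 in mutants, and 9.21% of its transcript windows are shared with another gene. Of the higher genes, Sorcs3, a sorting receptor of the Vps10 family, was at 268, 530.0 and 434 in controls and 1596, 1627 and 1260.0 in mutants (log2 fold change 1.86, SE 0.23). Astn2, an astrotactin known from neuron migration along glia, was at 658, 1141 and 1439 in controls and 3016, 2897 and 2277 in mutants, with a wide spread among controls. Stk32a, a little-studied kinase, and Adamts9, a metalloprotease of the extracellular matrix, rose by log2 fold changes of 1.77 (SE 0.23) and 1.27 (SE 0.25). Lypd6b, of the Ly6 family that includes modulators of nicotinic receptors, was at 55.2, 88.2 and 88.5 in controls and 247, 237 and 154 in mutants, lowest in mutant 3 among mutants.

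Among 52 transcription factors of striatal neurons that were tested, Mef2c, Ikzf1 and Sox8 were lower and Lmo4 and Pou3f1 higher, and the median log2 fold change of the list was 0.08. That is 9.62% of the list beside 0.971% of all genes tested. This and all gene lists below were written with earlier results of these data known, so their shares called are not independent evidence. Sox8, of the SoxE group, was at 5547, 5013 and 4215 in controls and 1813, 1462 and 2303 in mutants (log2 fold change -1.41, SE 0.16, adjusted p = 0.00458). Mef2c, a MADS-box factor of neuronal maturation, was at 3859, 3781 and 3279 in controls and 1923, 1716 and 2126 in mutants. The groups did not overlap for either factor. Ikzf1, a zinc finger factor known in lymphocytes and in late-born striatal neurons, was at 6115, 3497 and 3958 in controls and 1882, 1950.2 and 2448 in mutants, with Control 1 well above the other controls. Lmo4 and Pou3f1, a POU-domain factor, were higher by log2 fold changes of 0.78 (SE 0.13) and 0.86 (SE 0.15). Of these 5 factors only Sox8 was also called without both replicate 3 libraries, where the adjusted p was 0.0510 for Lmo4, 0.0672 for Ikzf1, 0.0789 for Mef2c and 0.155 for Pou3f1. The embryo code covariate ended the calls of Lmo4 and Pou3f1.

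LIM-only proteins bridge LIM-homeodomain and other transcription factors without binding DNA themselves. Of 6 members and cofactors tested, Lmo2 was lower and Lmo4 higher. The share called was 33.3% of this list and 25% of the Ebf list below, beside 0.971% of all genes tested. Lmo2 (chr2:103957986-103981878) was at 1909, 1436 and 1394 in controls and 428, 450.5 and 630.0 in mutants (log2 fold change -1.66, SE 0.17, adjusted p = 0.00458). Lmo4 was at 11122, 11094 and 12754 in controls and 22344, 21132 and 16677 in mutants, and mutant 3 was the lowest of the mutants. Of 4 genes tested among the Ebf family and their zinc finger partners, Zfp521 was lower, at 4358, 4075 and 5144 in controls and 1408, 1706 and 2488 in mutants (log2 fold change -1.28, SE 0.17). Zfp423, its close relative and an Ebf1 partner, was at 344, 247 and 222 in controls and 241, 217 and 184 in mutants, with overlapping groups and an adjusted p of 0.954. Zfp521 was called without both replicate 3 libraries, as was Lmo2.

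Of 9 dSPN genes named in the study, Mef2c, Zfp521, Plxnd1 and Slc35d3 were lower and the others were not called (44.4% called, beside 0.971% of all genes tested). The list was taken from the study and its results were known, so the count is not independent evidence. Without both replicate 3 libraries Mef2c (adjusted p = 0.0789) and Slc35d3 (adjusted p = 0.182) were not called, and the embryo code covariate also ended the call of Slc35d3. Drd1, the D1 dopamine receptor, was at 832, 1622 and 1829.6 in controls and 2438, 2269.5 and 2107 in mutants (log2 fold change 0.67, 95% interval 0.16 to 1.17, adjusted p = 0.346). Its mutants all lay above its controls without passing the test. Chrm4, the M4 muscarinic receptor, was at 475, 571 and 501 in controls and 266, 228 and 363 in mutants (log2 fold change -0.86, 95% interval -1.28 to -0.44, adjusted p = 0.0762). Its mutants all lay below its controls, yet it did not pass the threshold. Foxp2 was at 3834, 4907 and 4953 in controls and 4234, 4801 and 5006 in mutants, and its groups overlapped. None of 6 iSPN genes and none of 5 general projection neuron genes named in the study was called by edgeR or DESeq2, and at an unadjusted p below 0.05 by edgeR there were 0 and 3. Among the former, Drd2 had a log2 fold change of 0.06 (95% interval -0.28 to 0.40) and Adora2a one of 0.03 (95% interval -0.24 to 0.31). Of the general genes, Bcl11b (Ctip2) was at 22950.4, 26468 and 24546 in controls and 21869.5, 20663 and 20172 in mutants (log2 fold change -0.24, adjusted p = 0.45). The mutants of Bcl11b lay below the controls by a small margin that did not pass the test.

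Ebf proteins bind a palindrome with a core of CCCNNGGG, in which N is any base. RefSeq promoters of 300 bases, from 250 before to 50 after the start, were searched for this core, which reads the same on either strand. They were matched by symbol for 63 of the 82 lower and 55 of the 77 higher genes. The core was found in 19 of 89 promoters of lower genes (21.3%) and in 21 of 73 promoters of higher genes (28.8%), beside 18.4% of 14910 promoters of genes tested and 13.7% of all 32851 promoters. A match is a description of the letters and not a binding site. Promoters of lower genes Ankrd6 and Ikzf1 and of higher genes Sdk1 and Grm7 are shown because they place the core in genes of each direction described here, with the 8 bases of the core in capitals and the remainder in lower case (GRCm38.p6, 5′ to 3′ on the strand of the gene).
Ankrd6, chr4:32950777-32951076, minus strand, core 74 bases before the start: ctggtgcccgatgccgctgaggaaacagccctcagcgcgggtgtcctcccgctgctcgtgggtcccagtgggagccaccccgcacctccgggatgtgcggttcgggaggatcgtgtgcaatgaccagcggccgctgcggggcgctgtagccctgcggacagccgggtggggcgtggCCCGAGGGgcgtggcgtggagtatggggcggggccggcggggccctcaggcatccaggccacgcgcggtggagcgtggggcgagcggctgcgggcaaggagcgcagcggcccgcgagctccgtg
Ikzf1, chr11:11685675-11685974, plus strand, core 56 bases before the start: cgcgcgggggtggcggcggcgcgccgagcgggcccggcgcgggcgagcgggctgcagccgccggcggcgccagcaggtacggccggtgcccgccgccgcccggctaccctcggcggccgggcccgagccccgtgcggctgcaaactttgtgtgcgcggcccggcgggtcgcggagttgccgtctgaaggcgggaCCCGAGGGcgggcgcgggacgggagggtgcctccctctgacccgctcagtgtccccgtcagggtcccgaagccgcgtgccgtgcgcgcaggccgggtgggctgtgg
Sdk1, chr5:141241284-141241583, plus strand, core 210 bases before the start: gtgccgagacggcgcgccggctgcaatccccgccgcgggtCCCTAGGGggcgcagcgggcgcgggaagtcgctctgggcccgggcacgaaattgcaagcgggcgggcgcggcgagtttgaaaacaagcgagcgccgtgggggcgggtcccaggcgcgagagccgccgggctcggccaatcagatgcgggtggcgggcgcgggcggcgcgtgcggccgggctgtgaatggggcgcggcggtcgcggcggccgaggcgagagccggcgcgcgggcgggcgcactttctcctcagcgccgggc
Grm7, chr6:110645262-110645561, plus strand, core 193 bases before the start: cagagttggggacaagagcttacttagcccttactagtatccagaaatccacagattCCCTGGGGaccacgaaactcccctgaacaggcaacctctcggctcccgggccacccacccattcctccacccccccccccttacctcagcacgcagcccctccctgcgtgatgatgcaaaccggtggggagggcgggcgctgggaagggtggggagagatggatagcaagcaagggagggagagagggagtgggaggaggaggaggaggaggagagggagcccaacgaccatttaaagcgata
The core of Grm7 is also the full palindrome, with T before and A after it, as were those of 4 promoters of higher genes (5.48%) and of none of the 89 of lower genes, beside 1.07% of promoters of genes tested.

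Cell adhesion genes moved in both directions within the same families. Of 35 cadherins and protocadherins, Cdh8, Cdh13 and Pcdh19 were lower and Cdh4, Cdh7 and Cdh20 higher, with a list median log2 fold change of 0.01. That is 17.1% of the list beside 0.971% of all genes tested. Cdh20, a classical cadherin of type II, was at 203, 312 and 193 in controls and 693, 656 and 632 in mutants (log2 fold change 1.48, SE 0.19, adjusted p = 0.00908). Cdh13, which is anchored to the membrane by lipid and lacks a cytoplasmic tail, was at 6053, 5746 and 5899 in controls and 2809, 2111 and 3334 in mutants. In each of these genes all mutants lay on 1 side of the controls, as in 158 of the 159 called genes. Cdh8 was lower by 0.86 on the log2 scale (SE 0.17) and Pcdh19, which lies on the X chromosome, by 0.75 (SE 0.14). Cdh4 and Cdh7 were higher with log2 fold changes of 0.91 (SE 0.13) and 1.09 (SE 0.18). Without both replicate 3 libraries Pcdh19 and Cdh4 were called, and Cdh20, Cdh8, Cdh13 and Cdh7 were not, at adjusted p-values of 0.0771, 0.105, 0.156 and 0.185. The embryo code covariate ended the calls of Cdh8, Cdh13, Cdh7 and Pcdh19.

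Teneurins are large transmembrane proteins that bind across the synapse to latrophilins. Of 11 teneurins, latrophilins and FLRT proteins tested, Tenm2 and Adgrl2 were lower and Tenm3 higher. The share called was 27.3% here and 23.1% of the contactin list. It was 3.85% of immunoglobulin adhesion genes and 2.86% of synaptic organisers, beside 0.971% of all genes tested. Tenm2 (chr11:36006656-37235964) was at 4751, 4289 and 3831 in controls and 1900.0, 2022 and 2269 in mutants (log2 fold change -1.06, SE 0.12, adjusted p = 0.00458). Tenm3 (chr8:48227682-48843951) was at 3012, 3945 and 3009 in controls and 8470.0, 9336 and 6797 in mutants (log2 fold change 1.30, SE 0.15, adjusted p = 0.00574). These paralogues thus changed in opposite directions, and each was also called without both replicate 3 libraries. Adgrl2, a latrophilin, was lower with a log2 fold change of -0.66 (adjusted p = 0.0434). Of 13 contactins and their associated proteins, the adhesion molecules Cntn2 and Cntn5 were lower, Cntn2 with a 95% interval of the log2 fold change from -1.42 to -0.58 and Cntn5 with one from -1.44 to -0.68, and Cntnap4 was higher, at 258, 377 and 320.3 in controls and 656, 711 and 607 in mutants. Sdk1, a sidekick protein of homophilic synaptic adhesion, was the only member of 26 immunoglobulin adhesion genes that was called, at 212, 259 and 259 in controls and 871, 912 and 539 in mutants (log2 fold change 1.67, SE 0.20, adjusted p = 0.00607). Clstn2, a calsyntenin, was the single call among 35 synaptic organisers, with a log2 fold change of 0.68 (SE 0.13). Without both libraries Sdk1 was called, and Adgrl2, Cntn2, Cntn5, Cntnap4 and Clstn2 were not, at adjusted p-values of 0.153, 0.0618, 0.106, 0.0789 and 0.130. The embryo code covariate ended the calls of Adgrl2 and Clstn2.

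Of 31 semaphorins, plexins and neuropilins, Plxnd1 was lower and Nrp1 and Plxnc1 higher, which is 9.68% of the list beside 0.971% of all genes tested. The share called was 9.52% of ephrins and Eph receptors, 16.7% of the chemokine list and 14.3% of neurotrophin and GDNF family genes. Nrp2, which was not called, had a log2 fold change of 1.38 with a 95% interval of 0.73 to 2.03 (adjusted p = 0.0639). Plxnd1, the receptor for Sema3e, was at 15827, 14741 and 11846 in controls and 4949, 4188 and 6894 in mutants (log2 fold change -1.41, SE 0.17, adjusted p = 0.00739). Nrp1, the co-receptor for class 3 semaphorins, was at 540.0, 474 and 429 in controls and 787, 1048 and 668 in mutants (log2 fold change 0.80, adjusted p = 0.0486). Of 21 ephrins and Eph receptors, Ephb6 and Epha5 were higher, the latter with a log2 fold change of 0.57 (SE 0.09). None of 27 slits, netrins and their receptors and none of 8 genes of the reelin pathway was called. Reln had the lowest log2 fold change of the reelin list, -0.99, and the smallest adjusted p in that list was 0.209. The study reports Reln as strongly lower in both mutants. Of 6 chemokines and receptors, Cxcr4, which guides migrating neurons toward Cxcl12, was lower, at 1436, 1048 and 1033 in controls and 446, 343 and 403 in mutants (log2 fold change -1.57, SE 0.22). Among 14 neurotrophin and GDNF family genes, Ntrk2, the receptor for BDNF, was lower with a log2 fold change of -0.56 (SE 0.11), and Gfra1, the GDNF co-receptor, was higher. Gfra1 was at 337, 499.8 and 544 in controls and 2137, 2784 and 1559 in mutants (log2 fold change 2.23, SE 0.25, adjusted p = 0.00507). Plxnd1, Ephb6 and Gfra1 were called without both replicate 3 libraries and with the embryo code covariate. Without both libraries Nrp1, Plxnc1, Epha5, Cxcr4 and Ntrk2 were not called, at adjusted p-values of 0.133, 0.271, 0.154, 0.0721 and 0.0955, and of these only Cxcr4 was called with the covariate.

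**Figure D4:**
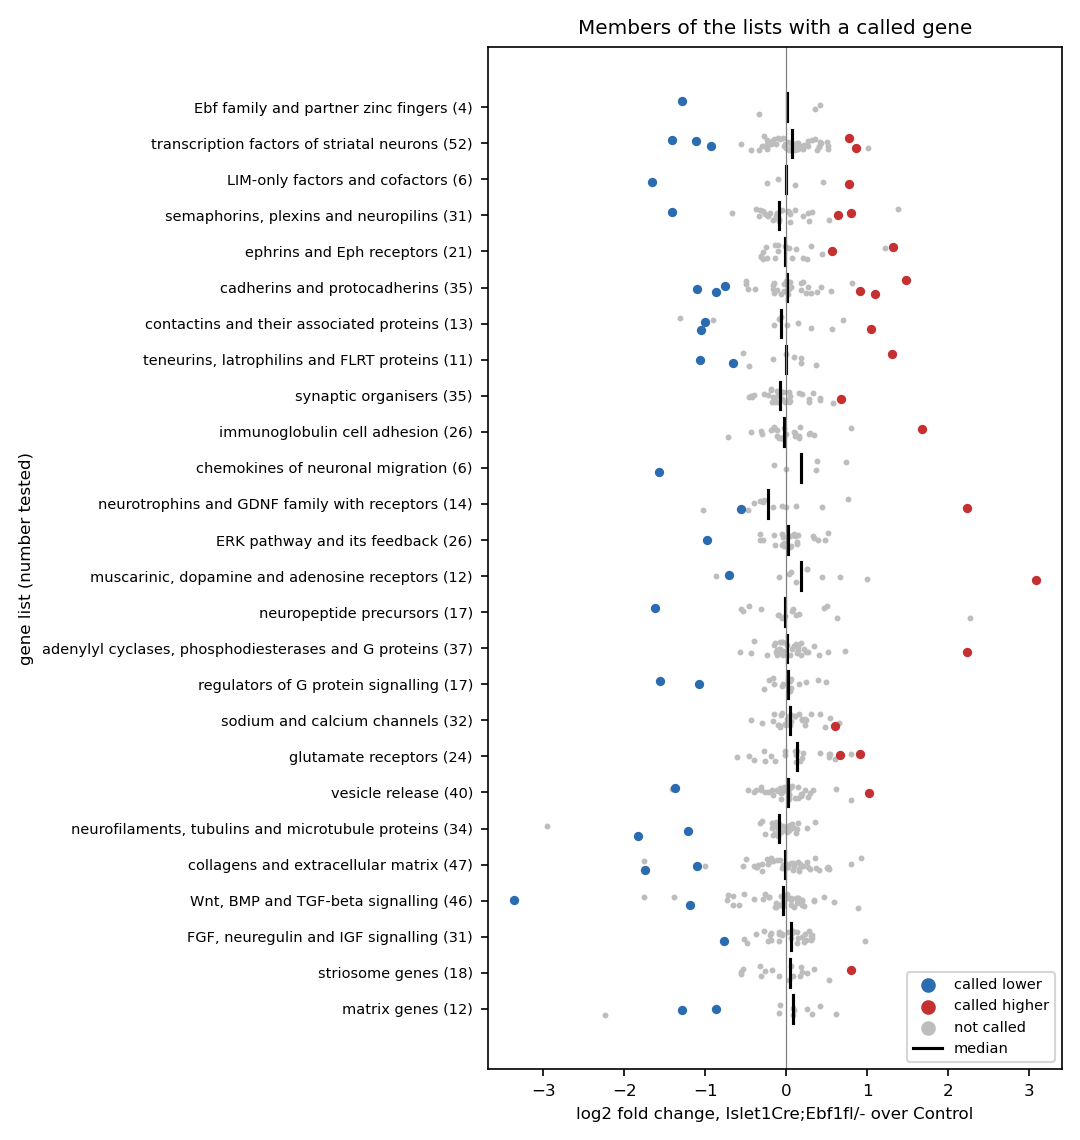
Each row is a gene list with at least 1 called gene and its number of genes tested, and each point is a member placed by its log2 fold change, Islet1Cre;Ebf1fl/- over Control, with genes called lower in blue, called higher in red, others in grey and the median as a black bar. The medians stay near 0, and called genes lie on both sides within the cadherins, contactins and teneurins.

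Of 12 muscarinic, dopamine and adenosine receptors, Chrm3 was higher and Adora1, the A1 adenosine receptor, lower, at 3762, 3648 and 4054 in controls and 2430.1, 2128 and 2477 in mutants (log2 fold change -0.71, SE 0.12). The share called was 16.7% of this list and 11.8% of regulators of G protein signalling. It was 2.7% of cyclases, phosphodiesterases and G proteins and 3.85% of ERK pathway genes, beside 0.971% of all genes tested. Avpr1a, the V1a vasopressin receptor, was at 18.1, 53.9 and 31.7 in controls and 234, 129.8 and 220.1 in mutants (log2 fold change 2.47, SE 0.41, adjusted p = 0.0222). Adra2b, an alpha-2 adrenergic receptor, was at 271, 163 and 106 in controls and 48.9, 34.1 and 28.6 in mutants (log2 fold change -2.27, SE 0.44). The groups of both receptors were apart by the rule that picked them, and their controls ranged widely. Calcrl, which forms the receptor for CGRP and adrenomedullin, was lower, at 279, 283 and 192 in controls and 85.6, 75.2 and 118 in mutants. Of 17 regulators of G protein signalling, which speed the turn-off of G proteins, Rgs4 and Rgs6 were lower. Rgs4 was at 12359, 11293 and 13492 in controls and 3376, 2833 and 6443 in mutants (log2 fold change -1.56, SE 0.31, adjusted p = 0.0455), with mutant 3 the nearest to the controls. Rgs6 had a log2 fold change of -1.07 (SE 0.19). Of 37 cyclases, phosphodiesterases and G proteins, Adcy8, a calcium-stimulated adenylyl cyclase, was higher, at 36.2, 53.1 and 39.4 in controls and 242, 233 and 127 in mutants (log2 fold change 2.23, SE 0.29). In the ERK pathway, Map2k1 (MEK1) was the only call among 26 genes, at 2736, 2413 and 1920.1 in controls and 1148, 1119 and 1349 in mutants (log2 fold change -0.97, SE 0.13, adjusted p = 0.0095). Rgs4, Rgs6, Calcrl, Adcy8 and Map2k1 were called without both replicate 3 libraries, and Avpr1a, Adra2b and Adora1 were not, at adjusted p-values of 0.203, 0.148 and 0.203. With the embryo code as a covariate Rgs4 (adjusted p = 0.156), Rgs6 (adjusted p = 0.0553), Avpr1a and Adora1 lost their calls.

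Among genes of excitability and transmission, 4 were called higher and 2 lower, with shares of 3.12% of sodium and calcium channels, 8.33% of glutamate receptors, 5% of vesicle release genes and 5.88% of neuropeptide precursors beside 0.971% of all genes tested. Cacna1g, a T-type calcium channel, was the only call among 32 sodium and calcium channels, and none of 65 potassium channels was called. Of 24 glutamate receptors, Grik4, a kainate receptor subunit, and Grm7, a presynaptic metabotropic receptor, were higher with log2 fold changes of 0.66 (SE 0.12) and 0.91 (SE 0.16). None of 26 genes for GABA and glycine receptors and transport and none of 23 postsynaptic scaffolds was called. Of 40 genes of vesicle release, Rph3a (rabphilin), which binds Rab3 on synaptic vesicles, was lower, at 12509.5, 10032 and 12514 in controls and 4274, 3319 and 5962 in mutants (log2 fold change -1.38, SE 0.20, adjusted p = 0.0139), and Syt2, a fast calcium sensor, was higher, at 64.2, 55.5 and 59.6 in controls and 129, 125 and 111 in mutants. Mutant 3 had the highest Rph3a of the mutants. Gal, the precursor of galanin, was the only call among 17 neuropeptide precursors, at 70.6, 64.5 and 69.3 in controls and 24.5, 17.0 and 26.8 in mutants (log2 fold change -1.62, SE 0.30). Rph3a was called without both replicate 3 libraries and with the embryo code covariate. Cacna1g, Grik4, Grm7, Gal and Syt2 were called under neither, with adjusted p-values without both of 0.309, 0.185, 0.146, 0.213 and 0.203.

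The light and medium neurofilament genes Nefl and Nefm, which build the intermediate filaments of axons, were the only calls among 34 cytoskeletal genes, and both were lower. Nefl lies within the span of Nefm on the other strand. The strand setting of the count is not given, so their calls may not be separate. The lowest log2 fold change of the list was -2.95, in a gene that was not called. The share called was 5.88% of this list and 4.26% of collagens and matrix genes. It was 4.35% of the Wnt, BMP and TGF-beta list and 3.23% of the FGF list, beside 0.971% of all genes tested. Nefl was at 3149, 2566 and 3237 in controls and 714, 629 and 1203 in mutants (log2 fold change -1.83, SE 0.28), and Nefm at 1054, 857 and 1235 in controls and 468, 333 and 569 in mutants (log2 fold change -1.21, SE 0.24). Of 47 collagens and matrix genes, Col25a1, a transmembrane collagen, and Gpc6, a glypican, were lower, by log2 fold changes of -1.75 (SE 0.22) and -1.10 (SE 0.21). Of 46 genes of Wnt, BMP and TGF-beta signalling, the ligands Wnt11 and Tgfb2 were lower. Wnt11 was at 87.7, 68.6 and 51.9 in controls and 4.08, 7.09 and 8.95 in mutants (log2 fold change -3.37, SE 0.36, adjusted p = 0.00458). Its counts are low but the groups are far apart, and it was called without both replicate 3 libraries. Tgfb2 had a log2 fold change of -1.19 (SE 0.22). Igfbp3, a binding protein of insulin-like growth factors, was the only call among 31 genes of FGF, neuregulin and IGF signalling, with a log2 fold change of -0.76. Without both libraries Nefl was called, and Nefm, Col25a1, Gpc6, Tgfb2 and Igfbp3 were not, at adjusted p-values of 0.155, 0.0627, 0.0717, 0.140 and 0.134. The embryo code covariate ended the calls of Nefl (adjusted p = 0.0553), Nefm, Tgfb2 and Igfbp3.

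Of the compartment genes tested, 5.56% of the striosome and 16.7% of the matrix list were called beside 0.971% of all genes. Of 18 striosome genes, Sez6, a complement-domain protein of dendrites, was higher, at 4237, 4861 and 4843 in controls and 8142, 9586 and 6561 in mutants (log2 fold change 0.80, SE 0.13). Of 12 matrix genes, Zfp521 and Cdh8 were lower. Cdh8 was not called without both replicate 3 libraries (adjusted p = 0.105), and neither Cdh8 nor Sez6 with the embryo code covariate. The median log2 fold change was 0.05 for the striosome and 0.08 for the matrix list, near that of all genes.

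Outside these lists, 110 of the 159 genes remained, and the following were picked after their values were seen. Paralogues moved together in several families. The ryanodine receptors Ryr2 and Ryr3, which release calcium from internal stores, were higher with log2 fold changes of 1.05 (SE 0.14) and 0.81 (SE 0.14). The Vps10 receptors Sorcs1 and Sorcs3 were higher, and Sorcs1 was at 686, 989.8 and 896 in controls and 1749, 1545 and 1460.4 in mutants. The receptor phosphatases Ptprg and Ptprk rose by log2 fold changes of 0.78 and 1.06, and Fam84a and Fam84b fell by 0.81 and 1.55. Other relatives moved apart. Stk32a was higher and Stk32b lower, at log2 fold changes of 1.77 and -0.56. Calcr, the calcitonin receptor, was higher while its relative Calcrl was lower. Calcr was at 0.905, 8.98 and 2.89 in controls and 87.0, 104 and 53.7 in mutants. Peg3 and Zdbf2, which are imprinted and expressed from the paternal copy, were both higher, with log2 fold changes of 0.55 (SE 0.09) and 0.91 (SE 0.14). Klf14, which is imprinted and expressed from the maternal copy, was also higher, at 0.905, 8.17 and 4.81 in controls and 53.0, 42.6 and 43.0 in mutants. No list of imprinted genes was examined. Of these genes picked after their values were seen, Ptprg, Ptprk, Fam84a, Fam84b, Sorcs3 and Calcrl were called without both replicate 3 libraries, and the others were not, at adjusted p-values from 0.0577 (Stk32a) to 0.260 (Stk32b). The embryo code covariate ended the calls of Ryr3, Fam84b, Stk32b, Calcr, Peg3 and Klf14.

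Several genes had low counts in 1 group. Scn10a, a sodium channel known from sensory neurons, was at 112, 109 and 38.5 in controls and 0, 3.55 and 8.95 in mutants. Gcm2, a factor of parathyroid development, was at 6.33, 7.35 and 0.962 in controls and 54.4, 77.3 and 43.0 in mutants, and Lrat, which esterifies retinol, was at 3.62, 12.2 and 11.5 in controls and 81.5, 54.6 and 50.1 in mutants. Genes at such counts have wide intervals, and for Calcr the 95% interval of the log2 fold change ran from 2.41 to 5.98. Scn10a was called without both replicate 3 libraries, and Gcm2 and Lrat were not (adjusted p = 0.0771 and 0.0789). None of 15 genes tested of the retinoic acid list, which does not hold Lrat, was called.

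Progenitor and proliferation genes were not called, with 0 of 16 progenitor factors and 0 of 20 cell cycle genes, and their median log2 fold changes were 0.16 and 0.19. Every mutant lay above every control in 2 progenitor factors and 5 cell cycle genes, beside 7.83% of all genes tested, and below in 0. Top2a was at 945, 1052 and 822 in controls and 1105, 1264 and 1489 in mutants (log2 fold change 0.45, SE 0.53). It was at 4958 in Dlx5/6::Cre;Ebf1fl/- 1, beside 1002 and 919 in the other libraries of that genotype, and this spread enters the SE. The missing calls therefore do not show that such genes were unchanged. None of 18 immediate early genes was called either, with a median of -0.33. None of the 15 opioid, cannabinoid and serotonin receptor genes tested was called by edgeR, and DESeq2 called Oprm1, described above. Over the 10 lists of function without a call by edgeR, which hold 233 genes, 39 genes had an unadjusted p below 0.05 and 15 were called by DESeq2, 6 of them potassium channels and 4 slits, netrins and their receptors.

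Markers of other cells that dissected striatum can hold gave no call by edgeR in any of 9 lists of 97 genes tested, where 7 genes had an unadjusted p below 0.05 and 1 was called by DESeq2. For cholinergic interneurons, the other population that recombines, the summed normalized count was 8498 to 10843 in controls and 9459 to 10266 in mutants. Most of each sum is Isl1, which dSPN also express, so the sum does not measure these interneurons alone. Ecel1 of this list, the gene called by DESeq2, was at 1191, 1334 and 1272 in controls and 1685, 1679 and 1588 in mutants (log2 fold change 0.38, edgeR adjusted p = 0.148). The sums also overlapped for medial ganglionic eminence interneurons, thalamus, astrocytes, oligodendrocytes, microglia, vessels and blood. The cortical excitatory list was at 7013 to 8408 in controls and 8752 to 9238 in mutants, so its sums did not overlap. Over its 15 members the log2 fold changes ran from -0.53 to 0.46, with a median of -0.12. In 2 of them every mutant lay above every control. Among its members, Tle4 and Cux2 had log2 fold changes of 0.38 and 0.28, and Neurod6 and Tbr1 of -0.27 and -0.12. The part of this list in any result was not tested.

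Of the 8 called genes that are not annotated as protein-coding, Rpsa-ps10, a processed pseudogene of a ribosomal protein gene, had the largest fitted change of all. It was at 6133, 5623 and 16.4 in controls and 17.7, 12.1 and 19.7 in mutants, so Control 3 lay with the mutants, and it is the exception among the 159 in which the groups overlap. No other gene showed a split of 8-fold or more between Controls 1 and 2 and the other libraries, and 75.2% of its windows are shared with other genes. The long noncoding RNA Gm20649 was at 0.905, 3.27 and 2.89 in controls and 23.1, 24.8 and 10.7 in mutants, and 97.3% of its windows are shared. Gm2824 was at 45.2, 60.4 and 59.6 in controls and 111, 125 and 138 in mutants, and ENSMUSG00000097348 was at 44.3, 89.8 and 71.2 in controls and 169, 221 and 147 in mutants. Tspan2os, an antisense gene, was at 19.9, 20.4 and 21.2 in controls and 72.0, 43.3 and 44.7 in mutants. How strand was used in counting is not given in the sources used here, so reads of this gene and of its antisense partner cannot be told apart. Without both replicate 3 libraries Gm20649, Gm2824, ENSMUSG00000097348 and Tspan2os were not called, at adjusted p-values of 0.170, 0.194, 0.180 and 0.204. In all, 8 called genes shared more than 5% of their windows with other genes and 45 overlapped a counted gene on the other strand.

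Since the alleles compared are linked to their neighbours, the positions of called genes were examined. Within 10 Mb of Ebf1 on chromosome 11, 2 of 128 genes tested were called (1.56%), Ccnjl, a cyclin-like gene at 1.03 Mb, and Tenm2 at 7.38 Mb, and both were lower. Ccnjl was at 433, 457 and 386 in controls and 205, 187 and 249 in mutants (95% interval of the log2 fold change -1.39 to -0.61), and it was not called without both replicate 3 libraries (adjusted p = 0.0870) or with the embryo code covariate. Within 10 Mb of Isl1, none of 52 genes tested was called by edgeR, 6 had an unadjusted p below 0.05 and 1 was called by DESeq2. Across chromosomes the share of genes called ran from 0.176% on the X to 1.99% on chromosome 12.

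**Figure D5:**
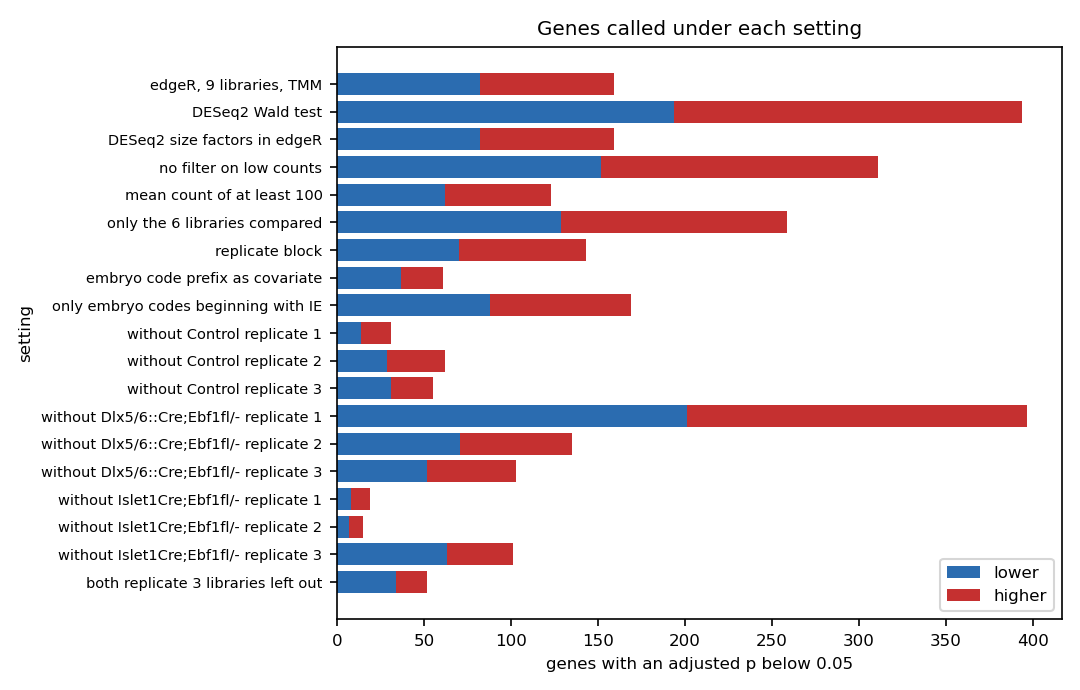
Bars give the number of genes with an adjusted p below 0.05 under each setting on the y axis, split into lower (blue) and higher (red). The count runs from 15 without Islet1Cre;Ebf1fl/- replicate 2 to 397 without Dlx5/6::Cre;Ebf1fl/- replicate 1, with 159 in the fit reported.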

How the data were processed

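The authors deposited 1 table per library with the counts of reads per Ensembl gene, without normalization. By the methods of the study, RNA of dissected striatum was made into stranded libraries from polyadenylated RNA and sequenced as single reads. Within the Eoulsan workflow, reads were filtered and mapped to mm10 with STAR 2.4.0k, those matching several positions were removed, and HTSeq-count 0.5.3 assigned the rest to Ensembl 81 genes. Genes with close copies elsewhere in the genome therefore lose counts. The strand setting of the count is not given in the sources used here.

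From the counts of 44886 genes, a single edgeR model (version 4.0.16, R 4.3.3) was fitted to the 9 libraries with their 3 genotypes as groups. Low genes were dropped by filterByExpr (minimum count 10), TMM factors scaled the libraries, and Islet1Cre;Ebf1fl/- was compared with Control by the quasi-likelihood test. A gene was called at a Benjamini-Hochberg adjusted p below 0.05. The standard error (SE) is the absolute log2 fold change over the square root of F, and 95% intervals use the t distribution. Normalized counts use DESeq2 1.42.0 size factors. Names and positions are from GENCODE M21 on GRCm38, which held 44133 of the identifiers, and promoters from RefSeq. The model was tested on counts simulated from its own fitted spread, with 200 genes of a mean count of at least 100 changed. It recovered 98% of the 4-fold and 85% of the 2-fold changes, and 5.67% of its calls were false. The simulation holds no library that stands apart from its group, so it does not cover that case.

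Named genes were the 12 lower and 12 higher coding genes with the largest change at a mean normalized count of at least 100, without overlap between groups and not drawn in the study's figures, all called members of each gene list or, where none was called, up to 3 with the highest counts, Ebf1 and Isl1 with called genes within 10 Mb, and the 5 noncoding genes with the largest change. Genes named beyond this rule were chosen after their values were seen. These are Chrm4, Drd1, Drd2, Foxp2, Nrp2 and Zfp423 of the lists, Odc1, Pam, Ndrg2, Prkcd and Zfp385b among the genes called under each setting, Neurod6 of the cortical list, the sex-linked genes, and the genes the report marks. The lists and members were chosen with earlier results of these data known.

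With 3 embryos per group, exact permutation of the labels for any gene reaches p = 0.1 at the lowest. Numbers shared between genotypes were checked for pairing. Deviations of same-numbered embryos correlated at -0.228 to -0.0882, so the numbers were not treated as pairs.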

Additional observations from a re-analysis of the deposited data

How the results depend on the processing

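The 159 genes changed (82 lower, 77 higher) became 394 (194 and 200) by DESeq2, 311 (152 and 159) with no filter on low counts, 259 (129 and 130) with only the 6 libraries compared, and 61 (37 and 24) with a covariate for embryo codes beginning with IE or D. Chosen after seeing the data, the omission of both replicate 3 libraries gave 52 (34 and 18). Leaving out each library in turn gave 15 to 397 genes in all, 7 to 201 lower and 8 to 196 higher. The lowest came without Islet1Cre;Ebf1fl/- 2 and the highest without Dlx5/6::Cre;Ebf1fl/- 1. DESeq2 size factors in edgeR, a mean count of at least 100 and IE embryos alone kept the count within 1.5 times (159, 123 and 169). The fit with a replicate block called 143 (70 lower, 73 higher), of which 122 were among the 159. No gene was called in opposite directions in any of these fits. The causes of these differences in number were not tested. Fits that omit libraries hold fewer of them, and some called fewer and some more genes than the 159. Depth limits low genes most in the library of 16.5 M counts. Of the 159 calls, 105 had an adjusted p of at least 0.02, and 13 held in each of 17 alternatives that did not include the last omission of 2 libraries. p-values cover the spread between these embryos only.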
